A study of Mus musculus with 2 samples.

Results

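The nuclear genes of the respiratory chain and the ATP synthase were followed in the lingual epithelium of newborn mice. Members were chosen by gene name: Ndufa, Ndufb, Ndufc, Ndufs or Ndufv with a number, Sdha to Sdhd, names that start with Uqcr, Cox4 to Cox8 with a subunit suffix, and names that start with Atp5. The rule found 83 genes among the 21628 entries of the expression table, with 37 in complex I, 4 in complex II, 8 in complex III, 17 in complex IV and 17 in complex V. All 83 had a number in both libraries.

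RNA was sequenced from 1 library of GFP-high cells and 1 library of GFP-low cells, sorted from the tongue epithelium of Sox2GFP mice at postnatal day 0, the day of birth. Pups were pooled and about 100000 cells were collected for each population. The reporter marks cells by the activity of Sox2, which is expressed in taste cells and in progenitors of the epithelium, so both populations are mixtures sorted by brightness. Levels are FPKM, a count of fragments divided by the length of the transcript and the size of the library, so that genes can be compared per length. With 1 library per population no difference has a replicate check and no p-value is given.

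The respiratory chain passes electrons from NADH (complex I) and succinate (complex II) through complex III and cytochrome c to complex IV, where oxygen is reduced. Protons pumped on the way return through complex V, the ATP synthase, which makes ATP. Several subunits come as isoforms from separate genes, some of them restricted to muscle or testis, and many of these short, abundant mRNAs have left processed pseudogenes across the genome.

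Both libraries carried the markers of a keratinocyte population. Krt5, a keratin of basal cells, was at 9667 FPKM in GFP-high and 10422 FPKM in GFP-low cells, and Krt14, its partner, at 6672 and 9635 FPKM. Sox2 itself was at 112 FPKM in GFP-high and 59.0 FPKM in GFP-low cells, in the order of the sort. Of the 9 taste genes, 6 reached 5 FPKM in at least 1 library, and these 6 were called higher in GFP-high cells. Over all genes at that level the share was 9.48%. Of the 6, Sox2 is the gene on which the cells were sorted. The authors had listed Shh, Prox1, Lrmp, Krt8 and Krt19 as enriched in GFP-high cells from these same libraries. The count is therefore a description of the sort and no separate check. Here a gene was called when it had at least 5 FPKM in the library where it was higher and a ratio of at least 1.5. Shh, a signal made by taste precursor cells, was at 20.7 FPKM in GFP-high and 0.84 FPKM in GFP-low cells.

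The members were abundant and nearly level between the libraries. Together they held 2.13% of the summed FPKM of the GFP-high library and 2.15% of that of the GFP-low library. Their median level was 200 FPKM in GFP-high and 196 FPKM in GFP-low cells, against 11.3 and 11.7 FPKM for the 17299 genes of the table that were not at 0 in both. In all, 76 of the 83 reached 5 FPKM in at least 1 library. Called higher in GFP-high cells were 2 members, Ndufa4l2 and Cox7a1, and called higher in GFP-low cells were 2, Cox7c and Ndufs5. Ndufs5 is at the threshold (1.501-fold) and was not called when GFP-low was multiplied by the median ratio or with 1 added to each FPKM. Across the 21611 entries with a number in both libraries, 4.72% were called higher in GFP-high and 4.44% higher in GFP-low cells. Over the 10768 of these at 5 FPKM or more in at least 1 library, the shares were 9.48% and 8.91%, and over the 3903 genes with a mean of at least 50 FPKM they were 7.61% and 4.66%.

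Most members lay close to a ratio of 1. Of the 76 that reached 5 FPKM, 67 (88.2%) were within 1.2-fold between the libraries, against 55.0% of all genes at that level. Several other lists had similar shares. The mitochondrial ribosome had 68 of 75 (90.7%) and the assembly factors 39 of 47 (83.0%). The citric acid cycle had 11 of 13 (84.6%) and the carriers 5 of 6 (83.3%). The biogenesis regulators had 9 of 13 (69.2%) and the cytosolic ribosome 54 of 80 (67.5%). In the short lists a few genes make such a difference in share. At a mean of at least 50 FPKM the numbers were 61 of 66 members (92.4%) and 61.6% of all genes. The median difference in log2(FPKM + 1), GFP-high minus GFP-low, was 0.02 over the 81 members not at 0 in both and -0.02 over all genes. When each library was divided by its FPKM sum the members' median turned to -0.07, and that of all genes was then -0.07 too.

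**Figure D1:**
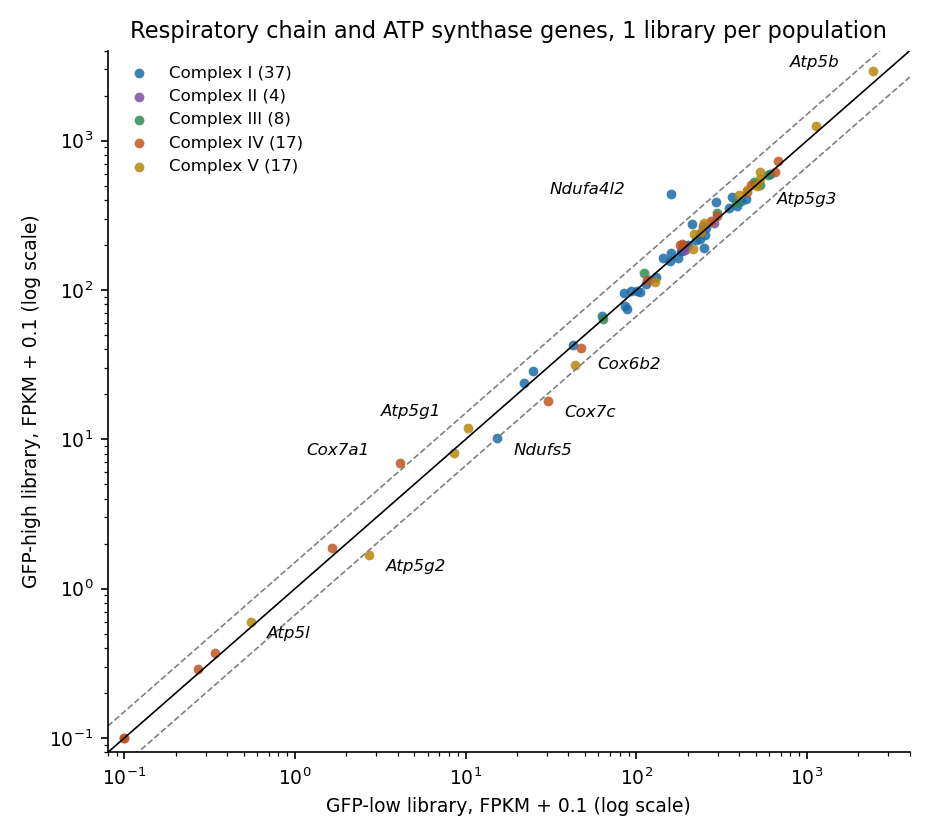
FPKM of each member in the GFP-low library (horizontal axis) and the GFP-high library (vertical axis), both on log scales with 0.1 added, colored by complex with the number of members. The solid line marks equal levels and the dashed lines a ratio of 1.5; Ndufa4l2 lies farthest above the line, and Atp5b is the highest point at 2929 and 2431 FPKM.

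Complex I takes electrons from NADH. Its 37 members had a median of 183 FPKM in GFP-high and 182 FPKM in GFP-low cells, and a median log2 difference of -0.01. The subunits that bind flavin and iron-sulfur clusters were close between the libraries. Ndufv1, which carries the flavin, was at 236 FPKM in GFP-high and 237 FPKM in GFP-low cells. Ndufs1, the large iron-sulfur subunit, was at 97.3 and 105 FPKM, and Ndufv2 was at 183 and 185 FPKM. Ndufs7 and Ndufs8 were at 178 and 159 FPKM and at 110 and 114 FPKM. Ndufs3 was at 95.7 FPKM in GFP-high and 84.2 FPKM in GFP-low cells, and 47.8% of its coding sequence is shared with other genes in the sense defined below. Among the accessory subunits, Ndufa10 had the highest mean of the complex, with 594 FPKM in GFP-high and 603 FPKM in GFP-low cells. The 12 Ndufb and Ndufc genes were all within 1.2-fold. Outside the called genes the ratios furthest from 1 were those of Ndufa3 (387 FPKM in GFP-high and 293 FPKM in GFP-low cells), Ndufv3 (277 and 212 FPKM) and Ndufa1 (191 and 249 FPKM). These 3 were named after their values were seen.

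Ndufa4l2 had the largest ratio between the libraries of the 83 members. It encodes a relative of NDUFA4, a protein first assigned to complex I and later found with complex IV. Ndufa4l2 was at 436 FPKM in GFP-high and 159 FPKM in GFP-low cells, a ratio of 2.75. Ndufa4 was at 367 FPKM in GFP-high and 388 FPKM in GFP-low cells. Ndufa4l2 thus held 54.3% of the summed FPKM of the pair in the GFP-high library against 29.0% in the GFP-low library, and the order of the genes was exchanged between the libraries. None of the coding sequence of either gene is shared with another gene. Ndufa4l2 lies at chr10:127514967-127517154 (GRCm38, plus strand) and overlaps Shmt2 on the opposite strand. Shmt2, an enzyme of mitochondrial serine metabolism, was at 92.2 FPKM in GFP-high and 102 FPKM in GFP-low cells. The libraries were stranded, but whether strand was used in counting is not given in the sources used here.

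Ndufa4l2 is also used as a marker of pericytes, so markers of that cell type were read beside it. Of the 10 pericyte and smooth muscle genes, 0 were called higher in GFP-high and 3 higher in GFP-low cells (Acta2, Mcam and Myh11). The shares of all genes were 4.72% and 4.44%. The 10 genes had a summed level of 161 FPKM in GFP-high and 238 FPKM in GFP-low cells. Rgs5 was at 1.80 FPKM in GFP-high and 3.98 FPKM in GFP-low cells, Pdgfrb at 1.36 and 2.96 FPKM, Higd1b at 0.25 and 0.21 FPKM, and Kcnj8 at 0.28 and 0.35 FPKM. Mcam, the most abundant in GFP-low cells, was at 51.9 FPKM in GFP-high and 96.6 FPKM in GFP-low cells, and Notch3, the most abundant in GFP-high cells, at 57.0 and 38.1 FPKM, was just under the threshold with a ratio of 1.499. In bulk samples, fewer cells of a type and less RNA per cell cannot be told apart.

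Complex II oxidizes succinate. Its 4 genes were all within 1.2-fold, with a median log2 difference of -0.02. Sdha, the flavoprotein, was the highest at 281 FPKM in GFP-high and 286 FPKM in GFP-low cells, and Sdhb, the iron-sulfur subunit, was at 185 and 192 FPKM. Sdhc, a membrane anchor, had the largest ratio toward GFP-high cells (1.09, from 267 and 246 FPKM), and Sdhd, the other anchor, was the lowest at 117 and 119 FPKM.

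Complex III passes electrons from quinol to cytochrome c. Its 8 genes were also all within 1.2-fold, with a median log2 difference of 0.02. The core proteins Uqcrc1 and Uqcrc2 were at 586 and 531 FPKM in GFP-high cells and at 593 and 490 FPKM in GFP-low cells. Uqcrfs1, the Rieske iron-sulfur protein, was at 130 FPKM in GFP-high and 111 FPKM in GFP-low cells, the largest ratio of the complex (1.17). Uqcrq, a small accessory subunit, was the member furthest toward GFP-low cells, with 502 and 533 FPKM. Uqcrb was the lowest, at 64.0 FPKM in GFP-high and 63.6 FPKM in GFP-low cells.

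Complex IV reduces oxygen. Its 17 members had a median of 200 FPKM in GFP-high and 180 FPKM in GFP-low cells over the 15 that were not at 0 in both, and a median log2 difference of 0.07. Cox6b1 was the highest, at 730 FPKM in GFP-high and 672 FPKM in GFP-low cells. Cox5a was at 311 and 296 FPKM. Cox4i1, the widely expressed form of subunit 4, was not analysed here. Cox7c was called higher in GFP-low cells, with 18.1 FPKM in GFP-high and 30.3 FPKM in GFP-low cells (1.67-fold). Cox7a1 was called higher in GFP-high cells, with 6.81 and 4.03 FPKM, a ratio of 1.69, and it did not reach 5 FPKM in the other library.

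The isoforms of complex IV known from heart and skeletal muscle or testis were under 10 FPKM in both libraries, except Cox6b2. Cox6a1, the form found in most tissues, was at 618 FPKM in GFP-high and 650 FPKM in GFP-low cells, and Cox6a2, the muscle form, at 0.27 and 0.24 FPKM. In Cox8 the pattern was the same, with Cox8a at 502 and 471 FPKM and Cox8b, the muscle form, at 0.19 and 0.17 FPKM. Cox8c and Cox7b2 were listed at 0 in both libraries, beside 453 and 444 FPKM of Cox7b. Cox4i2, the form of subunit 4 known from lung, was at 1.76 FPKM in GFP-high and 1.55 FPKM in GFP-low cells. Cox7a1, the muscle form of subunit 7a, held 2.07% of its family in the GFP-high and 1.32% in the GFP-low library, where Cox7a2 was at 204 and 186 FPKM and Cox7a2l at 117 and 116 FPKM. Cox6b2 stood apart from these, since this gene known from testis was at 40.7 FPKM in GFP-high and 47.3 FPKM in GFP-low cells, 5.28% and 6.57% of the family. None of the coding sequence of Cox6b2 is shared with another gene.

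**Figure D2:**
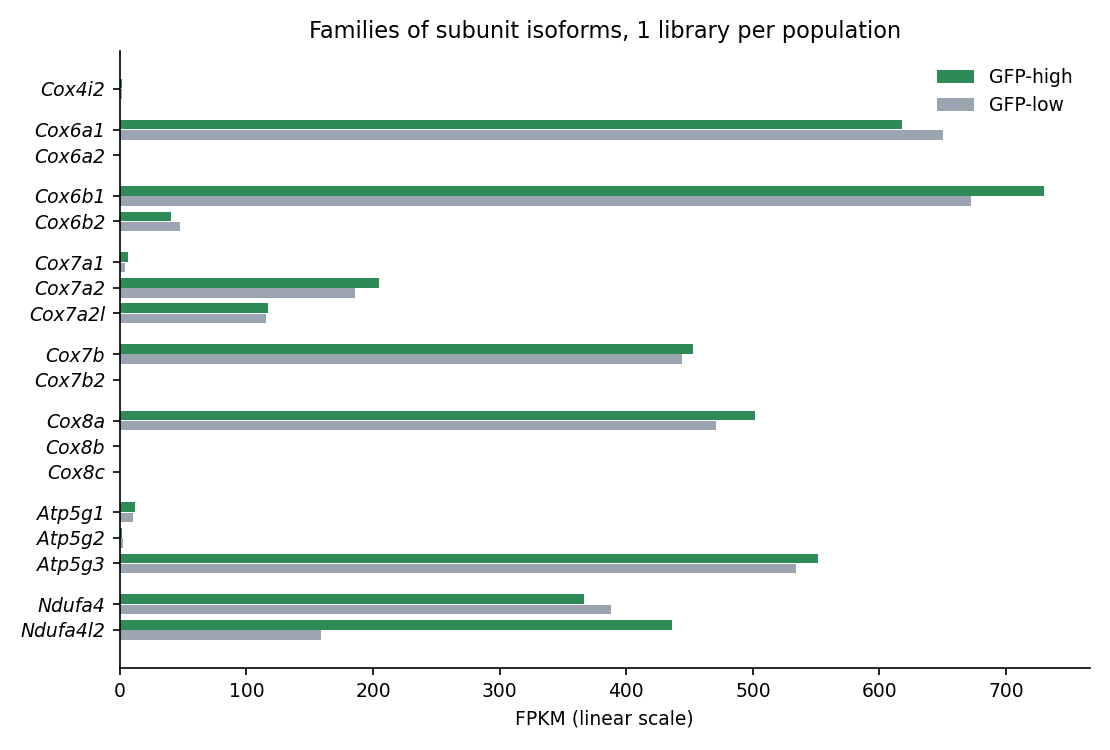
FPKM (linear scale from 0) of the genes of each isoform family in the GFP-high (green) and GFP-low (grey) library, 1 library each. Ndufa4l2 is the isoform whose bars differ most, 436 against 159 FPKM, and Cox6b2 is visible at 40.7 and 47.3 FPKM where the other restricted forms are near 0.

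Markers of skeletal muscle were read beside the muscle isoforms. Of the 12 genes, 1 was called higher in GFP-high cells (Tnnt3, 8.58 and 5.05 FPKM) and 1 higher in GFP-low cells (Mylpf, 47.7 and 73.1 FPKM). The shares of all genes were 4.72% and 4.44%. The 12 genes had a summed level of 135 FPKM in GFP-high and 152 FPKM in GFP-low cells. Mylpf was not called when GFP-low was multiplied by the median ratio. Tnni2 was the most abundant in GFP-high cells at 56.6 FPKM, with 48.1 FPKM in GFP-low cells, and Myh3, a myosin of developing muscle, was at 0.39 and 1.25 FPKM. The part of muscle RNA in the value of Cox7a1 was not tested. Of the 6 adipocyte genes, Cidea was called higher in GFP-high cells (5.35 and 0.55 FPKM), while Adipoq was at 0.17 and 0.06 FPKM and Ucp1 at 0.21 and 0.07 FPKM.

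Complex V, the ATP synthase, held the most abundant members. Atp5b, the catalytic beta subunit, was at 2929 FPKM in GFP-high and 2431 FPKM in GFP-low cells, the largest ratio toward GFP-high cells in the complex (1.205). Atp5a1, the alpha subunit, was at 1249 and 1131 FPKM, and Atp5c1, the central stalk, at 246 and 239 FPKM. The 17 genes had a median log2 difference of 0.05, and their FPKM summed to 7857 in the GFP-high and 7090 in the GFP-low library, a ratio of 1.11 that is the highest of the 5 complexes. Without Atp5b it was 1.06. For all genes of the table the ratio of sums was 1.07. Atp5sl, named for its likeness to Atp5s and listed as Dmac2 in GENCODE, was counted here by the name rule alone. Among the genes of the complex at 5 FPKM or more, Atp5sl was furthest toward GFP-low cells (31.5 and 43.9 FPKM, 1.39-fold). No gene of the complex was called.

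**Figure D3:**
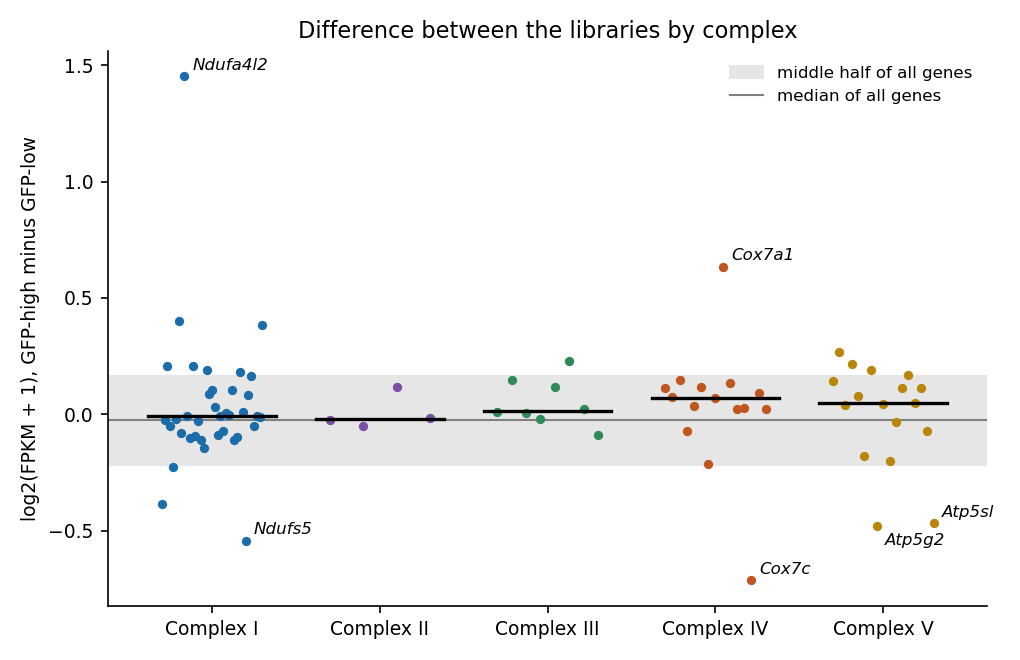
Difference in log2(FPKM + 1), GFP-high minus GFP-low, of each member not at 0 in both libraries, by complex. Black bars are the medians of the complexes, from -0.02 in complex II to 0.07 in complex IV, the grey line is the median of all genes (-0.02) and the grey band holds the middle 50% of all genes; divided by the FPKM sums the medians of all 5 complexes are below 0.

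Members differed widely in FPKM, and some of the low ones share coding sequence with other genes. Shown first is subunit c, the ring of the ATP synthase, whose mature protein is the same from 3 genes. Atp5g3 was at 551 FPKM in GFP-high and 534 FPKM in GFP-low cells, Atp5g1 at 11.8 and 10.2 FPKM, and Atp5g2 at 1.59 and 2.61 FPKM, so Atp5g3 held 97.6% and 97.7% of the family. The last coding exon of each gene is shown because it encodes part of that mature protein in all of them. It lies on the minus strand (GRCm38) at chr11:96073107-96073218 for Atp5g1, chr15:102663017-102663128 for Atp5g2 and chr2:73908596-73908707 for Atp5g3, and capitals mark the bases that differ from Atp5g3.
Atp5g1: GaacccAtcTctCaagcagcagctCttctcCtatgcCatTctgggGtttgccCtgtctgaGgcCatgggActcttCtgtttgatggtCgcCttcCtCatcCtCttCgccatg
Atp5g2: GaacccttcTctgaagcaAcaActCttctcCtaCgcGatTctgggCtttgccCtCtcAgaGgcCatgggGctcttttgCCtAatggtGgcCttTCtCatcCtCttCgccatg
Atp5g3: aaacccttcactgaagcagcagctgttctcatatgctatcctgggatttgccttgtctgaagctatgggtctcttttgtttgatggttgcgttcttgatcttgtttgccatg

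Over these 112 bases Atp5g1 differs from Atp5g3 at 21 positions and Atp5g2 at 27, and they differ from each other at 16. The longest run without a difference between any pair of them is 18 bases, so a read of 50 nt inside this exon tells the 3 genes apart. Processed copies elsewhere in the genome are closer. Every window of 50 nt in the coding part of each gene's longest principal transcript was looked up in the annotated transcripts of all other genes. For Atp5g1, 99.7% of the windows were found elsewhere, for Atp5g2 100%, and for Atp5g3 0%. The pseudogenes that share at least 50 windows are processed copies, Gm10039 at chr11:100361716-100362126 for Atp5g1 and Gm10175 at chr7:23946646-23947290 and Gm10231 at chr17:5816200-5816640 for Atp5g2. Windows shared with pseudogenes were not limited to the coding part, since Gm10175 shares 596 with Atp5g2, which has 389 coding windows.

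Cox7c and Atp5l have copies of the same kind. Atp5l, subunit g of the ATP synthase, was at 0.50 FPKM in GFP-high and 0.45 FPKM in GFP-low cells, the lowest of complex V. All of its coding windows occur elsewhere, and 8 pseudogenes share at least 50 windows with it, not limited to the coding part. Its neighbor in the complex, Atp5k (subunit e), was at 280 FPKM in GFP-high and 249 FPKM in GFP-low cells with 2.44% of its coding windows elsewhere. For Cox7c 100% of the coding windows were found elsewhere, so no read inside the coding part is unique. The coding part of Uqcr11, from 2 exons at chr10:80406696-80406745 and chr10:80404169-80404286 (both minus strand), is shown as a case of a partial copy. Capitals mark bases that lie in at least 1 window found in another gene.
Uqcr11: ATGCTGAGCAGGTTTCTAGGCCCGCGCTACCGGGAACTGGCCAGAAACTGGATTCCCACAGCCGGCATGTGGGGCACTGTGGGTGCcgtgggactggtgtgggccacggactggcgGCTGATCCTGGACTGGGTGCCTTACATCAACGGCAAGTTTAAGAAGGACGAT

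In Uqcr11, 33.6% of the windows are shared, and a read that covers the bases in lower case tells it from its copy. Uqcr11 was at 329 FPKM in GFP-high and 297 FPKM in GFP-low cells, and Cox7c at 18.1 and 30.3 FPKM.

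Over the members, 19 of 83 (22.9%) shared at least 20% of their coding windows with another gene. Of the 76 members at 5 FPKM or more in at least 1 library, 17 (22.4%) did. The share was 7.28% over the 10758 genes with the same minimum that have such windows. The 5 members at 90% or more, Atp5g1, Atp5g2, Atp5l, Cox7c and Ndufb4, had 0.50 to 23.6 FPKM in GFP-high and 0.45 to 30.3 FPKM in GFP-low cells. Ndufb4, a small accessory subunit of complex I, was at 23.6 and 21.9 FPKM. The 14 members from 20% to under 90% had a median of 152 FPKM in GFP-high and 154 FPKM in GFP-low cells, and the 64 members under 20% had 226 and 215 FPKM. For the 76 members at 5 FPKM or more in at least 1 library, the medians were 18.1 and 21.9 FPKM at 90% or more (3 members), 152 and 154 FPKM from 20% to under 90% and 236 and 237 FPKM under 20%. Over all genes with the same minimum they differed less, with 20.8 and 22 FPKM at 90% or more, 37.1 and 38 FPKM from 20% to under 90% and 31.7 and 32.4 FPKM under 20%. Of the 14 members, Ndufs5 was the lowest, with 10.1 FPKM in GFP-high and 15.1 FPKM in GFP-low cells and 72.5% of its windows elsewhere. The others were Uqcrb (72.9%), Ndufa12 (72.0%), Cox7a2l (71.5%), Atp5h (67.1%), Cox5b (61.5%), Cox6c (53.6%), Atp5f1 (50.1%), Ndufs3 (47.8%), Uqcr11 (33.6%), Ndufs6 (25.4%), Atp5o (24.9%), Cox6a1 (22.3%) and Ndufb11 (20.3%). Their levels ran up to 618 FPKM in GFP-high and 650 FPKM in GFP-low cells, both in Cox6a1. Among the 64 members under 20%, 11 were also under 50 FPKM in both libraries, and 7 of these are the restricted isoforms of complex IV.

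Both members called higher in GFP-low cells, Cox7c and Ndufs5 (the latter at the threshold), are among the 19 with shared sequence, and both members called higher in GFP-high cells have 0% of coding windows elsewhere. How reads that match several places were treated is not given in the sources used here, and the part of such reads in the low FPKM was not tested. With untranslated regions and all annotated transcripts counted, 4 members passed 20% (Atp5g2, Cox7c, Ndufs5 and Uqcrb), while Atp5l was at 8.73% and Atp5g1 at 11.1%.

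**Figure D4:**
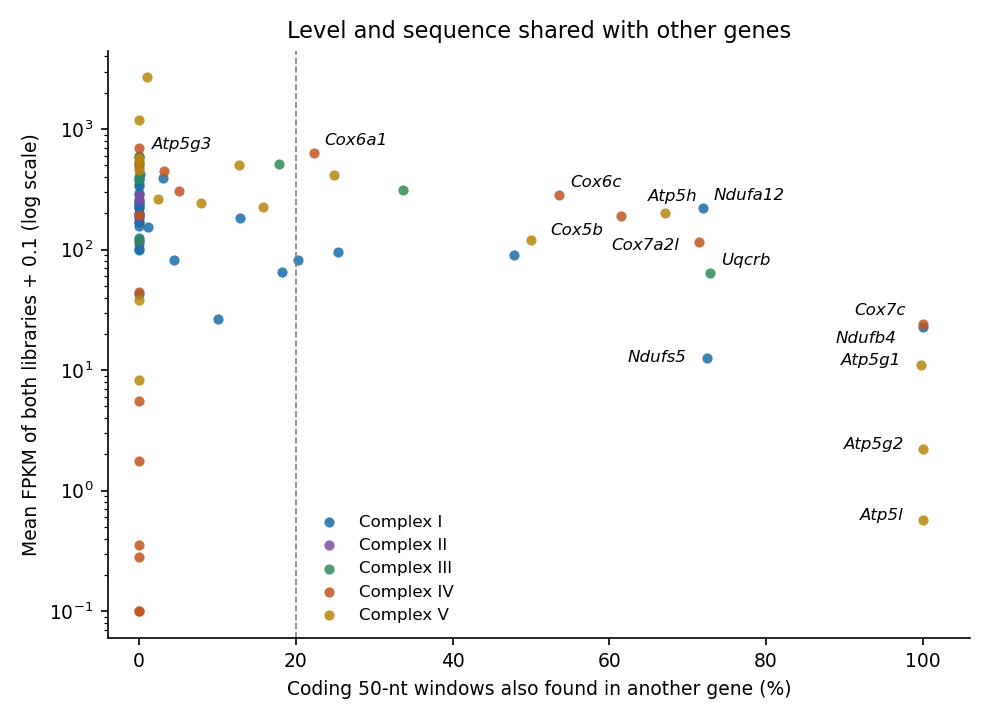
Mean FPKM of both libraries with 0.1 added (log scale) against the percentage of coding windows of 50 nt that also occur in another gene, 1 point per member, colored by complex. The dashed line marks 20%; the 5 points at the right edge are at 30.3 FPKM or less in both libraries, and the points at 0% run from 0 to 1249 FPKM in GFP-high cells.

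Of 7 genes that work beside the members, 3 had nearly all coding windows elsewhere. Cycs, which encodes the cytochrome c of body tissues and carries electrons from complex III to complex IV, was at 3.13 FPKM in GFP-high and 3.41 FPKM in GFP-low cells, with 100% of its coding windows elsewhere. Cyct, the testis form, was at 0.27 and 0.18 FPKM. Ndufab1, the acyl carrier protein in complex I, was at 17.1 and 17.8 FPKM with 99.8% of its coding windows elsewhere. Usmg5, a small subunit of the ATP synthase, was at 42.5 and 37.6 FPKM with 100%. Cyc1 (cytochrome c1 of complex III) was at 268 and 253 FPKM and 2010107E04Rik at 387 and 348 FPKM, both with 0% like Cyct, and Atpif1 (the inhibitor of the ATP synthase) at 741 and 814 FPKM with 1.49%. Of the 7 genes 0 were called, where 4.72% of all genes were called higher in GFP-high and 4.44% higher in GFP-low cells. The 13 protein genes of mitochondrial DNA, which encode the remaining core subunits, were listed at 0 in both libraries. These genes are used by every cell with mitochondria, so the 0 is read only as what the table lists.

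Assembly factors join the subunits without staying in the complex. Of 49 analysed, 2 were called higher in GFP-high and 1 higher in GFP-low cells, against 4.72% and 4.44% of all genes. Counts this small do not set the list apart. The median log2 difference was -0.02. Acad9, a complex I assembly factor related to acyl-CoA dehydrogenases, was at 52.4 FPKM in GFP-high and 26.9 FPKM in GFP-low cells, a ratio of 1.94. Lyrm7, which serves the Rieske protein of complex III, was at 6.08 and 3.53 FPKM. Atpaf1, which binds the beta subunit of the ATP synthase, was at 4.50 and 7.32 FPKM with 79.5% of its coding windows elsewhere. The most abundant were Uqcc1 (144 and 155 FPKM) and Uqcc2 (142 and 143 FPKM), both of complex III.

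Among 15 regulators of mitochondrial biogenesis, 1 was called higher in GFP-high and 0 higher in GFP-low cells, against 4.72% and 4.44% of all genes. The median log2 difference was -0.08. Esrra, a nuclear receptor that acts on genes of oxidative metabolism, was at 74.5 FPKM in GFP-high and 49.0 FPKM in GFP-low cells, a ratio of 1.52 that is under 1.5 when each library is divided by its FPKM sum. Ppargc1a, its coactivator, was at 1.5 and 3.12 FPKM, under the minimum. Nrf1 was at 41.5 and 44.1 FPKM, and Tfam, the packaging factor of mitochondrial DNA, at 50.1 and 51.2 FPKM. Polg, the polymerase of mitochondrial DNA, was the most abundant in GFP-low cells, at 126 and 158 FPKM.

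Over all genes, 4.72% were called higher in GFP-high and 4.44% higher in GFP-low cells, so 0 called in a short list does not set it apart. The citric acid cycle list had 0 of 13 genes called and a median log2 difference of 0.02, with Mdh2 the most abundant at 572 and 492 FPKM. The carriers of ADP, ATP and phosphate with the VDAC channels had 0 of 7 called and a median of 0.03. Slc25a3, the phosphate carrier, was at 600.4 FPKM in GFP-high and 607 FPKM in GFP-low cells, and Vdac1, the main channel of the outer membrane, at 578 and 442 FPKM. When each library was divided by its FPKM sum, both medians were -0.07. The mitochondrial ribosome list, with Mrps23 entered in 2 rows, had 1 of 77 entries called (Mrps33, 9.83 and 6.17 FPKM, with 81.4% of coding windows elsewhere and a ratio under 1.5 after division by the FPKM sums) and a median of -0.01, and the cytosolic ribosome list 3 of 84 (Rpl23a, Rpl35 and Rps12, all higher in GFP-low cells, of which only Rpl35 was still called when GFP-low was multiplied by the median ratio or with 1 added) and a median of 0.01, which is -0.09 after division by the FPKM sums. These 3 share 91.6% to 100% of their coding windows with other genes.

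Ucp2 was abundant and was called higher in GFP-low cells. It encodes a carrier of the inner membrane in the family of the uncoupling protein of brown fat, and was at 926 FPKM in GFP-high and 1658 FPKM in GFP-low cells (1.79-fold), with no coding window elsewhere. Its relatives Ucp1 and Ucp3 were at 0.21 and 0.07 FPKM and at 0.37 and 0.70 FPKM.

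**Figure D5:**
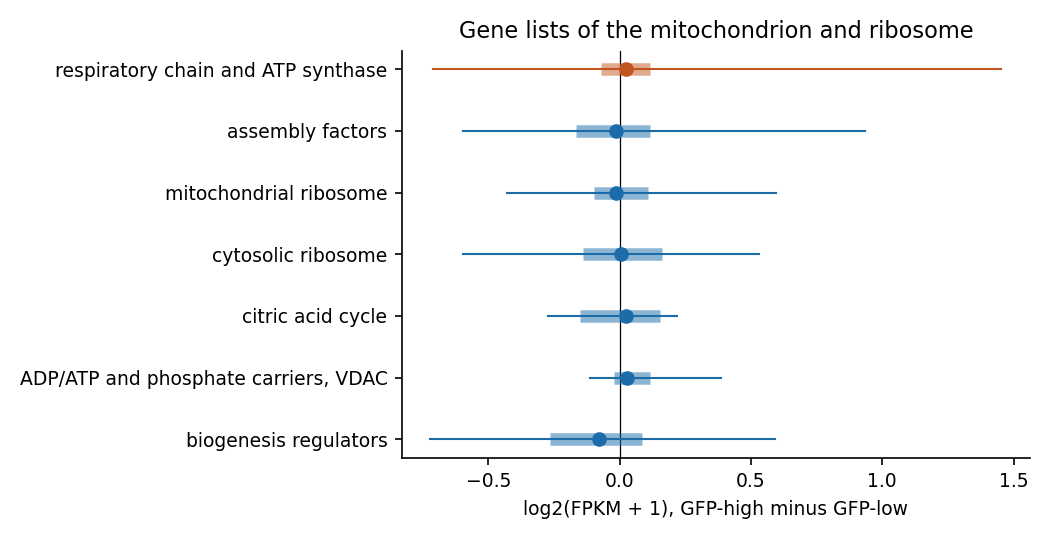
Median (point), middle 50% (thick bar) and range (thin line) of the difference in log2(FPKM + 1), GFP-high minus GFP-low, over the genes of each list that are not at 0 in both libraries. The medians run from -0.08 for the biogenesis regulators to 0.03 for the carriers; after division by the FPKM sums they are all below 0.

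Promoters were searched for 3 motifs known from nuclear genes of mitochondrial proteins, from 250 bases before to 50 after the start in RefSeq (GRCm38.p6), on both strands. Windows were found for 69 of the 83 members. The NRF1 type motif GCGCANGCG was in 20 of 69 members (29.0%), against 7.03% of all 27025 genes with a window and 16.1% of the 8623 at 5 FPKM or more in at least 1 library. The ETS type motif CCGGAAG was in 16 members (23.2%, against 9.93% and 21.3%), and the YY1 type motif AAGATGGC in 11 (15.9%, against 3.19% and 5.73%). At least 1 motif was in 39 of 69 members (56.5%), against 17.8% of all genes and 37.1% of those expressed. Of the 5 members with 90% or more of their coding windows elsewhere, 3 had a motif. The bases before the start of Atp5l, at chr9:44920743-44920992, and of Cox6a1, at chr5:115348982-115349208 (both minus strand), are shown as a member of very low and one of high FPKM that both hold the NRF1 type motif. Both also hold an ETS type motif, which in Cox6a1 lies in an annotated exon of the gene, outside the 227 bases shown. Capitals mark motifs on either strand.
Atp5l: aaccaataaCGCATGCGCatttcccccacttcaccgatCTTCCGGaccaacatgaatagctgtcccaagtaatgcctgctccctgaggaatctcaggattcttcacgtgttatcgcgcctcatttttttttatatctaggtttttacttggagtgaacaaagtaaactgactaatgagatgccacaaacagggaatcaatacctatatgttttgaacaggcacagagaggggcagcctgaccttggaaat
Cox6a1: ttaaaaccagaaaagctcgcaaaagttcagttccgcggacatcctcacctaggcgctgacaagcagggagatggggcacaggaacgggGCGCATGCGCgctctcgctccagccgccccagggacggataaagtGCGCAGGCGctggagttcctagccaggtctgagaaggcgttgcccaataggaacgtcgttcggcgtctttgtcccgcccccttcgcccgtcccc

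A match is a description of the letters in the window and does not show binding. Ndufa4l2 was not among the 69.

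Markers of other cell types differed between the libraries while the members were level. The counts below stand beside 4.72% of all genes called higher in GFP-high and 4.44% called higher in GFP-low cells. Fibroblast genes were summed to 453 FPKM in GFP-high and 2252 FPKM in GFP-low cells, with 6 of 8 called higher in GFP-low cells and Col3a1 the most abundant (193 and 966 FPKM). Of the 6, Lum was not called with 1 added to each FPKM. Pdgfra was level (1.42 and 1.46 FPKM), and Twist2, under the minimum, was higher in GFP-high cells (2.27 and 0.5 FPKM). Schwann cell genes were summed to 67.8 and 271 FPKM, with 5 of 7 called higher in GFP-low cells, among them Sox10 (0.51 and 42.7 FPKM). Red blood cell genes went the other way, with 3 of 7 called higher in GFP-high cells, a sum of 118 against 41.0 FPKM and Hbb-bs the most abundant (63.9 and 23.0 FPKM). The 3 called, Hba-a1, Hba-a2 and Hbb-bs, share 87.8% to 93.6% of their coding windows with other genes. Of the 8 endothelial genes 7 were higher in GFP-high cells, with a median log2 difference of 0.58, but most were under 5 FPKM and 1 was called (Pecam1, 5.31 and 2.38 FPKM, which is under the minimum after division by the FPKM sums). Egfl7 was the most abundant (18.5 and 15.9 FPKM). Leukocyte genes had 0 of 5 called and sums of 18.3 and 19.8 FPKM. Among 6 melanocyte genes Mitf was called higher in GFP-high cells (17.2 and 1.24 FPKM) and Pmel was at 1.09 and 0.73 FPKM, while Dct (0.23 and 0.91 FPKM), Tyrp1 (0.04 and 0.88 FPKM) and Mlana (0 and 0.15 FPKM) were lower there and Tyr was listed at 0 in both. Of the 8 suprabasal keratinocyte genes 4 were called higher in GFP-high cells, including Krt4 (14203 and 2323 FPKM) and Krt13 (30523 and 9738 FPKM). Of the 10 epithelial genes 3 were called higher in GFP-high cells, Epcam and again Krt4 and Krt13, and 0 higher in GFP-low cells. Below the threshold, 5 of the 10 were higher in GFP-low cells (Krt5, Krt14, Krt15, Trp63 and Itga6), among them Krt15 (7093 and 9773 FPKM). The median log2 difference of the epithelial genes was 0.10. Of the 8 proliferation genes 1 was called higher in GFP-high cells (Cdk1, 239 and 142 FPKM). The part of these cell types in the value of Ndufa4l2, Ucp2 or Acad9 was not tested.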

How the data were processed

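RNA of 1 GFP-high and 1 GFP-low library was analysed, each from pooled P0 pups. Per the labels, stranded single-end reads of 50 nt were sequenced to about 75000000 per sample. The authors used Trimmomatic 0.36, GSNAP, the mm10 genome and Cufflinks 2.2.1 and deposited FPKM rounded to 2 decimals. Their fold column was not used. The columns are named means, but the labels give 1 library per population, so each was read as 1 library. Entries without a number in both libraries (17) were left out. No read counts were recovered. Low FPKM of genes with 1 transcript gave about 27200000 reads for GFP-high and 35400000 for GFP-low cells, under the 75000000 of the labels. At these numbers 57.4% and 50.9% of values lay within 0.15 of a whole read, in a form settled after others were tried. The numbers were picked for the highest such share, so the share does not check them. Low FPKM rest on few reads.

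A gene was called with at least 5 FPKM where higher and a ratio of at least 1.5, without a test. Lists were described by counts and medians of log2(FPKM + 1). Members and lists were chosen with earlier results of these data known. Genes named are the isoform families, the highest, lowest and most different member of each complex, called members, members with at least 20% of shared windows, catalytic subunits, and called, most abundant or defining genes of the lists; others were chosen after their values were seen. Shared windows were sought in GENCODE M21 transcripts, not the whole genome, so unannotated copies are missed. The coding part was chosen after the values over all exons were seen. The code of the calls was tested on simulated data, which gives no error for 1 library per population. Alternatives were other scalings, minimums, ratios and pseudocounts, and leaving out members with shared windows. Python 3 with pandas and numpy was used. The level of 1 gene and 1 coding sequence are not reported here.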

Additional observations from a re-analysis of the deposited data

How the results depend on the processing

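No paired analysis was possible because there is 1 library per population. Of the members called higher in GFP-high cells (2), 1 was counted with a minimum of 5 FPKM in each library, with a minimum of 10 FPKM and with a ratio of 2, and 5 with a ratio of 1.2. Of those called higher in GFP-low cells (2), 1 was counted after GFP-low was multiplied by the median ratio and with 1 added to each FPKM, 0 with a ratio of 2, 4 with a ratio of 1.2, and 3 with a minimum of 1 FPKM or none, Atp5g2 being the added member. Without members sharing 20% of exon windows 0 were counted, and likewise without those sharing 20% of coding windows, an alternative added after the data were seen; fewer members were then counted. Ndufs5, with a fold of 1.501, is the member that sits on the threshold. Dividing each library by its FPKM sum lowers every ratio by 0.10 on the log2 scale (a change of -0.10). The median log2 difference then became -0.10 in complex I, -0.12 in complex II, -0.081 in complex III, -0.0055 in complex IV, -0.017 in complex V and -0.075 over all members, and -0.073 over all genes. Of the lists it became -0.11 for the assembly factors, -0.11 for the mitochondrial ribosome, -0.087 for the cytosolic ribosome, -0.073 for the citric acid cycle, -0.17 for the biogenesis regulators and -0.070 for the carriers. Under this scaling the medians of complexes III, IV and V and of all members changed sign, and those of complexes I and II changed sign when GFP-low was multiplied by the median ratio. The sign of each of these medians therefore depends on the scaling. The other medians moved by less than 0.05, and most isoform shares moved by less than 1.5 times with 1 added to each FPKM. The exceptions, all under 1%, were Cox6a2 (0.20% in the GFP-high and 0.19% in the GFP-low library), Cox8b (0.24% and 0.25%) and Atp5g2 in GFP-high cells (0.46%), besides Cox7b2 (from 0 to 0.22% in each library) and Cox8c (from 0 to 0.20% and 0.21%). Ndufa4l2, Cox7a1, Cox7c, Ucp2, Acad9, Lyrm7 and Atpaf1 stayed past the threshold under both scalings and with 1 added. Other called genes of the lists did not all stay. After division by the FPKM sums Esrra, Mrps33, Slc2a1, Pgk1, Sbsn and Pecam1 were not called. Mylpf, Rpl23a and Rps12 were not called after GFP-low was multiplied by the median ratio, and Pgk1, Lum, Rpl23a and Rps12 were not with 1 added. With 1 library per population, differences of this size have no measured error.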

Other observations

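Genes of the response to low oxygen were read beside Ndufa4l2, which is known as one of them, in a list chosen after values of some of its genes had been seen. Of 13 genes, 3 were called higher in GFP-high and 1 higher in GFP-low cells, against 4.72% and 4.44% of all genes. Of the 3, only Adm was still called after each library was divided by its FPKM sum, while Slc2a1 and Pgk1 were then under a ratio of 1.5. Adm, a vasoactive peptide, was at 94.8 FPKM in GFP-high and 40.8 FPKM in GFP-low cells, and Slc2a1, the glucose transporter, at 247 and 156 FPKM. Pgk1, a glycolytic enzyme, was at 10.3 and 6.74 FPKM with 100% of its coding windows in other genes. Epas1, a subunit of a hypoxia-inducible factor, was at 21.5 and 35.7 FPKM. Below the threshold, Vegfa was at 87.1 and 78.7 FPKM and Egln3 at 51.3 and 48.5 FPKM. Bnip3 was at 11.4 and 13.3 FPKM, with 72.5% of its coding windows in other genes. Pdk1 was at 75.4 and 61.6 FPKM and Ldha at 445 and 386 FPKM. Of the 13 genes, called or not, 8 were higher in GFP-high and 5 higher in GFP-low cells. Car9 was at 0.52 and 0.29 FPKM.

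Levels and shared coding sequence were also read outside the respiratory chain. In the cytosolic ribosome list, 41 of 84 genes had 90% or more of their coding windows elsewhere, and 25 of these were under 50 FPKM in both libraries, with a median of 32.0 FPKM in GFP-high and 37.7 FPKM in GFP-low cells. The 36 genes from 20% to under 90% had a median of 752 FPKM in GFP-high and 740 FPKM in GFP-low cells, and 2 of them were under 50 FPKM in both. The 7 genes under 20% had a median of 39.6 FPKM in GFP-high and 35.6 FPKM in GFP-low cells, and 4 of them were under 50 FPKM in both (Rpl10l, Rpl39l, Rpl3l and Rps19bp1). The cause was not tested.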
